A study of Mus musculus with 8 samples.

Results

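L1Md_A is one of the young families of LINE1 retrotransposons of the mouse, and the data described here are the RNA-sequencing reads that fell into its copies. The members are all rows of the deposited repeat table with the family name L1Md_A that lie off the random scaffolds of the mm9 assembly, 3131 of the 17857 listed repeat elements. A further 113 L1Md_A rows on random scaffolds held 0 reads in every library and were left out. Every listed element is longer than 5000 bp, so shorter copies are not covered. Whether the listed copies are full-length was not tested. The members were set by family name and scaffold, and no read value entered that rule. The rule was chosen with earlier results of these data known.

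A LINE1 element encodes the proteins that copy its own RNA back into the genome, and in the mouse the A, T and Gf families hold the copies still able to do so. The promoter of L1Md_A lies in its 5′ UTR, which is built from tandem repeats of a unit called a monomer, and copies differ in how many monomers they keep. In embryonic stem cells these promoters are held down by DNA methylation and by repressive histone marks. DAXX is a histone chaperone that works with ATRX to place the histone variant H3.3 at repeats and other heterochromatin.

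The libraries came from mouse embryonic stem cells of 4 lines, namely J1, J1 with DAXX knocked out, TKO, which lacks 3 DNA methyltransferases (DNMT), and TKO with DAXX knocked out. Each line was grown in regular embryonic stem cell medium or for 72 hours with 1 µM PD0325901, a MEK inhibitor, 3 µM CHIR99021, which inhibits GSK3b, and 100 µg/ml vitamin C, here called 2i. That gave 8 groups of 1 library each, with no replicate of any group. The sample titles give the DAXX knockout, while the genotype field of the 2 J1 DAXX-knockout libraries reads wild type, and the level of Daxx itself was not analysed here because the assembled loci carry no gene names. Whether a line is a single clone was not given in the sources used here. All libraries share the capture of cytoplasmic RNA on oligo-dT.

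Library totals ranged from 67.4 to 99.1 M reads, and the median L1Md_A element held between 310 and 1542 reads. L1Md_A took 1.49% to 5.74% of all reads and 17.5% to 29.7% of the reads in listed repeats. In each library 2 to 10 of the 3131 elements had 0 reads, which allows up to 3 reads for such an element (counting error only), and 0 elements were at 0 in all libraries. Elements are not independent of each other, since young copies are alike in sequence and the handling of reads that match several of them was not given in the sources used here. A scale set on 9243 assembled loci matched across libraries differed by log2 −0.042 to 0.069 from the library totals used here.

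L1Md_A RNA was most abundant in the TKO lines with DAXX intact and least abundant in TKO DAXX-knockout cells in 2i. Over all elements, L1Md_A was at 1.71 RPKM (reads per kilobase and M of library total) in J1 regular and 1.21 in J1 2i. In J1 DAXX-knockout cells it was at 1.31 RPKM in regular medium and 1.43 in 2i. In TKO it was at 3.08 RPKM in regular medium and 2.30 in 2i. With DAXX knocked out in TKO it was at 1.53 RPKM in regular medium and 0.801 in 2i. Both TKO libraries with DAXX intact thus lay above all the others, and the 4 J1 libraries and TKO DAXX-knockout regular lay close together. In these bulk samples, fewer cells with the RNA and less RNA per cell cannot be told apart.

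The median element followed the same order at the top and the bottom. It was at 1.47 RPKM in J1 regular, with an interquartile range of 0.812 to 2.23. In TKO regular it was at 2.65 RPKM, with a range of 1.54 to 4.08. In TKO DAXX-knockout 2i it was at 0.697 RPKM, with a range of 0.399 to 1.05. The upper quartile there lay below the lower quartile of TKO regular. The ranks of the copies stayed nearly the same, as Spearman's rho over the 3131 elements lay between 0.957 and 0.988 for the 28 pairs of libraries. For the 4980 L1Md_T elements it lay between 0.874 and 0.985. Element sequence and mappability are shared by the libraries of each pair, so these correlations are a description only.

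**Figure D1:**
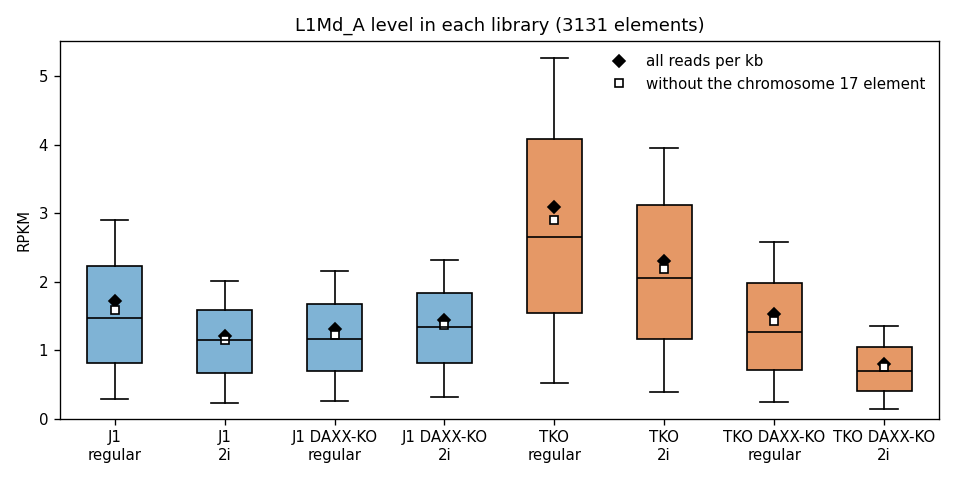
L1Md_A level in RPKM (y axis) in each of the 8 libraries (x axis). Boxes give the median and quartiles over 3131 elements, whiskers run from the 5th to the 95th percentile, diamonds give the level over all elements and squares the level without the chromosome 17 element. J1 lines are blue and TKO lines orange, and the diamonds run from 0.801 in TKO DAXX-knockout 2i to 3.08 in TKO regular.

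Reads were spread over many copies, with a single exception. Between 766 and 896 elements together held 50% of the L1Md_A reads of a library, and the top 10% of the elements held 23.7% to 28.9%. An element on mm9 chromosome 17 from 4082095 to 4087259 held 4.91% to 7.59% of the reads by itself, while the next highest element held 0.307% to 0.566%. Without it the level of the family was 1.58 RPKM in J1 regular, 2.89 in TKO regular and 0.752 in TKO DAXX-knockout 2i.

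DAXX knockout was compared with DAXX intact to ask how these copies respond when the chaperone is lost, in J1 and in TKO lines. DNA methylation itself was not analysed here. In TKO the L1Md_A level with DAXX knocked out was 0.496 of the intact level in regular medium and 0.348 of it in 2i. In J1 the ratio was 0.766 in regular medium and 1.19 in 2i. The family was thus lower in 3 of 4 pairs, with a mean log2 ratio of −0.67 ± 0.77 (SD, 4 pairs). The spread over pairs was larger than the mean.

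Single copies moved together within each pair. Among the 3065 elements with a mean of at least 0.1 RPKM, the median log2 ratio in TKO regular was −1.06, and 90% of elements lay between −1.36 and −0.79. In TKO 2i the median was −1.55, and 90% lay between −1.89 and −1.09. In each of these pairs 3063 elements were lower and 2 higher. In J1 regular the median was −0.35, with 2805 elements lower and 260 higher. In J1 2i it was 0.25, with 244 lower and 2821 higher. So nearly all copies shared the direction of their family in each pair, including the pair in which that direction was upward.

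Most other repeats moved the same way as L1Md_A in both TKO pairs and in J1 2i, but not in J1 regular. In J1 regular 56.8% of the 8257 tested elements outside L1Md_A were higher with DAXX knocked out. Over the 11322 elements tested, L1Md_A included, the medians in J1 regular, J1 2i, TKO regular and TKO 2i were −0.06, 0.52, −1.07 and −1.24. Of these elements 90.1% and 90.5% were lower in the TKO pairs. L1Md_T, the most numerous young family, had medians of 0.03, 0.69, −1.10 and −1.22 over 4951 elements. L1Md_A therefore lay below L1Md_T by its median in both J1 pairs and in TKO 2i, and about level with it in TKO regular.

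**Figure D2:**
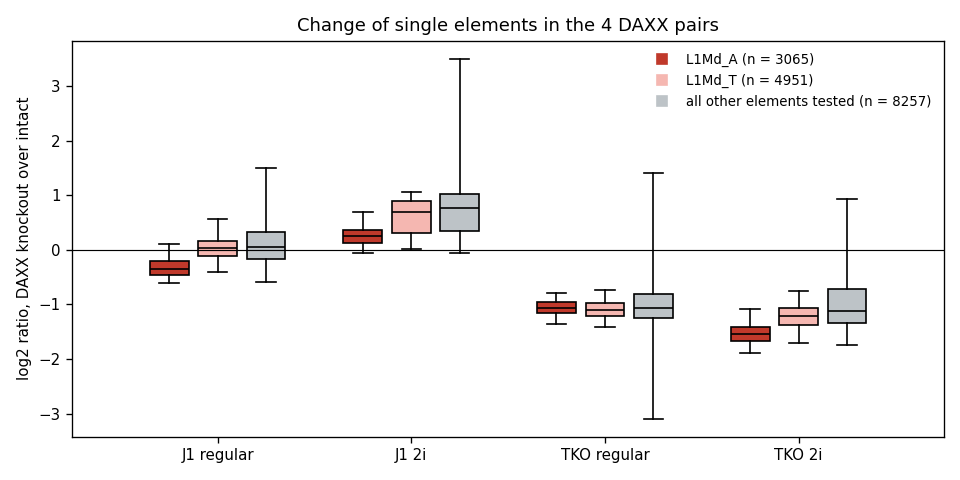
Log2 ratio of DAXX knockout over DAXX intact for single elements (y axis) in the 4 pairs of libraries (x axis). Boxes give medians and quartiles and whiskers the 5th to 95th percentiles, for 3065 L1Md_A elements, 4951 L1Md_T elements and the 8257 tested elements outside L1Md_A, L1Md_T included. All 3 medians lie near −1 or below in both TKO pairs, and those of L1Md_A are −0.35 and 0.25 in the J1 pairs.

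A fit over the libraries of both backgrounds had a separate DAXX term for each background. In TKO 2187 L1Md_A elements fell with DAXX knockout and 0 rose, at an adjusted p under 0.05 in edgeR. Those that fell are 71.4% of the 3065 tested. Over all 11322 elements 56.4% fell and 3.42% rose, and of the 8257 outside L1Md_A 50.9% fell. The median change of L1Md_A was log2 −1.28, a fold of 0.412, and that of all elements was −1.18. The share that fell was 60.6% of 4951 L1Md_T elements, 55.8% of 113 L1Md_Gf, 70.7% of 75 L1Md_F, 42.5% of 939 L1Md_F2 and 43.1% of the L1Md_F3 elements. The read sum of L1Md_A changed by log2 −1.25 with an SE of 0.401 and was not called (adjusted p of 0.0747, edgeR), beside 2.27% of 44 families that were. The count of elements is not stable. With 1 library left out it was 1 (J1 regular, J1 2i or TKO regular), 2 (TKO 2i), 4 (the TKO DAXX-knockout line in 2i) or 573 (that line in regular medium), and scaling on the repeats themselves by TMM left 1 lower and 2 higher.

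The elements that fell most in TKO lay outside assembled loci, as did 91.1% of all L1Md_A elements. Apart from the last one named, they had a mean below 1 RPKM. The first, on chromosome 7 from 5734328 to 5740728, was at 0.108 RPKM in J1 regular and 0.209 in J1 2i, and at 0.201 and 0.225 in the same media with DAXX knocked out. In TKO it was at 0.456 RPKM in regular medium and 0.258 in 2i, and at 0.0839 and 0.0451 with DAXX knocked out. Both TKO DAXX-knockout libraries lay below the other 6. Its change in TKO was log2 −2.47 with an SE of 0.510 (adjusted p of 0.00129, edgeR). The call held in 13 of 16 alternatives and was lost, among others, without TKO regular. An element of 6181 bp on chromosome 18 changed by −2.01. One on chromosome 6 from 131652430 to 131658593 changed by −1.97, one on chromosome 13 from 17566012 to 17571690 by −1.94 and one on chromosome X from 61106103 to 61111303 by −1.85. The last was at 2.45 and 1.73 RPKM in TKO regular and 2i against 0.859 and 0.346 with DAXX knocked out. The calls of these 4 were lost when any DAXX-intact library, or the TKO DAXX-knockout one in 2i, was left out. Each held in 9 of its 16 or 17 alternatives.

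DAXX knockout in the J1 background gave 0 called L1Md_A elements in edgeR, against 7.81% of all elements called higher and 0.0177% called lower. Without adjustment 7 L1Md_A elements had a p under 0.05, and DESeq2 and limma called 0. The median change was log2 −0.03, beside 0.24 over all elements and 0.42 for L1Md_T. The read sum changed by −0.04 with an SE of 0.396 (adjusted p of 0.969 in edgeR). The near-zero value averages the 2 media, whose log2 ratios were −0.38 and 0.25. Without J1 DAXX-knockout regular 50 elements were called, all higher, and TMM or median-of-ratios scaling called 1 each way.

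The difference of the DAXX effect between TKO and J1 was tested itself. It was called for 7 L1Md_A elements in edgeR, all with a lower value in TKO, beside 0.503% of all elements. The median difference was log2 −1.25 for L1Md_A, −1.59 for L1Md_T and −1.41 over all elements. For the read sum of L1Md_A it was −1.20 with an SE of 0.562 (adjusted p of 0.139 in edgeR), while DESeq2 gave an adjusted p of 0.0233. With 1 library left out the count was 0 (J1 regular or J1 2i), 1 (TKO regular or TKO 2i), 5 (TKO DAXX-knockout 2i), 29 (J1 DAXX-knockout 2i), 73 (TKO DAXX-knockout regular) or 2298 (J1 DAXX-knockout regular). Under TMM it was 0 and the median difference was 0.13.

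Of the 7, the 5 largest are named. The chromosome 7 element above had the largest difference, −2.88 with an SE of 0.698 (adjusted p of 0.0217 in edgeR). An element on chromosome 10 from 49687112 to 49693139 differed by −2.50. In J1 it was at 0.222 and 0.214 RPKM in regular medium and 2i and at 0.431 and 0.497 with DAXX knocked out. In TKO it was at 0.743 and 0.565, and at 0.296 and 0.200 with DAXX knocked out. It was thus about 2-fold higher with DAXX knockout in J1 and lower in TKO, in both media. The change in J1 by itself, log2 1.10, was not called (adjusted p of 0.132, edgeR). Naming required both TKO ratios to lie below both J1 ratios, so that order was set by the choice. Another on chromosome 10, from 52301538 to 52307532, differed by −2.47, one on chromosome X from 146666961 to 146672291 by −2.46 and one on chromosome 1 from 3027807 to 3033128 by −2.40. All 5 lie outside assembled loci, as do 91.1% of all L1Md_A elements. Their calls were lost when any library with DAXX intact was left out, those of the last 3 also without TKO DAXX-knockout 2i. They held in 6 to 8 of 16 alternatives.

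With 1 DAXX term shared by both backgrounds, DAXX knockout gave 1 L1Md_A element lower and 0 higher in edgeR. Of all elements 0.0618% were called lower and 6.7% higher. That element is the one on chromosome 17. The median change was log2 −0.66 for L1Md_A, −0.37 for L1Md_T and −0.45 over all elements. The read sum changed by −0.64 with an SE of 0.389 (adjusted p of 0.646 in edgeR). The call was lost without J1 regular, J1 DAXX-knockout regular or either TKO DAXX-knockout library, and without J1 DAXX-knockout 2i 1727 elements were called lower.

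TKO was compared with J1 to ask how the copies differ where the DNA methyltransferases are absent. With DAXX intact, L1Md_A in TKO was 1.80 times the J1 level in regular medium and 1.91 times in 2i. With DAXX knocked out the ratio was 1.16 in regular medium and 0.559 in 2i. The excess in TKO was thus seen with DAXX intact, while with DAXX knocked out it was small in one medium and turned around in the other. The mean log2 ratio was 0.29 ± 0.82 (SD, 4 pairs).

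With DAXX intact nearly every copy was higher in TKO. In regular medium 3061 elements were higher and 4 lower, with a median log2 ratio of 0.89, and in 2i 3049 were higher and 16 lower, with a median of 0.90. Most listed repeats were higher too, with 98.1% of the 11322 tested elements and a median of 0.97 in regular medium, and 92.9% and 0.73 in 2i. For L1Md_T those medians were 1.18 and 0.59. L1Md_A thus had nearly the same median ratio in both media, and L1Md_T had a lower one in 2i. With DAXX knocked out the L1Md_A medians were 0.19 in regular medium and −0.89 in 2i.

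Fitted over all libraries, edgeR called 0 L1Md_A elements for DNMT, against 0.583% of all elements called higher and 0.0265% lower, and 6 had an unadjusted p under 0.05. DESeq2 called 0 and limma 1. This DNMT term averages the DAXX-intact pairs, in which nearly every copy was higher in TKO, with the DAXX-knockout pairs, of which the 2i pair went the other way. It therefore does not show that TKO and J1 were alike with DAXX intact. The median change was 0.28, beside 0.17 over all elements, and the read sum changed by 0.29 with an SE of 0.389 (adjusted p of 0.970 in edgeR), where 11.4% of families were called. The sign of that sum turned under TMM, to −0.12. Without J1 DAXX-knockout 2i 2 elements were called, both higher, and under TMM or median-of-ratios scaling 7 were called, all lower.

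The medium was compared in each line. L1Md_A in 2i was at 0.704 of its level in regular medium in J1 and at 0.746 in TKO. With DAXX knocked out this ratio was 1.09 in the J1 line and 0.524 in the TKO line. It was thus lower in 3 of 4 pairs, with a mean log2 ratio of −0.43 ± 0.43 (SD). The element median was −0.41 in J1, with 2886 of 3065 elements lower, and −0.40 in TKO, with 3045 lower. With DAXX knocked out it was 0.17 in J1, with 438 lower, and −0.89 in TKO, with 3052 lower. J1 DAXX-knockout was thus the line in which most copies were higher in 2i. For L1Md_T these medians were −0.07 and −0.67 with DAXX intact and 0.53 and −0.77 with DAXX knocked out. The pairs for DAXX, DNMT and the medium are drawn from the same 8 libraries and are not independent of each other.

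In edgeR the medium gave 1 L1Md_A element lower and 0 higher, beside 4.72% of all elements lower and 0.495% higher, and it is again the chromosome 17 element. The median change was −0.32 for L1Md_A and −0.25 over all elements. The read sum changed by −0.38 with an SE of 0.381 (adjusted p of 0.846 in edgeR), where 15.9% of families were called. Without J1 DAXX-knockout 2i 23 elements were called lower, and under median-of-ratios scaling 8.

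How the change with DAXX knockout went with the level of a copy differed from pair to pair. In J1 regular the median log2 ratio for DAXX knockout was −0.18 in the lowest of 4 equal classes by mean RPKM, then −0.31, −0.39 and −0.43 in the highest. Of the 767 elements in the lowest class 209 were higher, against 2 of the 766 in the highest. In J1 2i the same medians were 0.37, 0.23, 0.22 and 0.23. In TKO regular they were −1.09, −1.07, −1.05 and −1.03, and in TKO 2i −1.44, −1.54, −1.57 and −1.58. The lowest class thus lay above the others in both J1 pairs and in TKO 2i, and slightly below them in TKO regular. Lower classes hold fewer reads per element, and the part of counting error in this was not tested.

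The chromosome 17 element stood far above all other copies. In J1 it was at 469 RPKM in regular medium and 214 in 2i, and at 323 and 261 in these media with DAXX knocked out. In TKO it was at 681 RPKM in regular medium and 432 in 2i, and at 400 and 179 with DAXX knocked out. These are 21.8 to 31.6 times the next highest element and 187 to 319 times the median element. It was lower in 2i in 4 of 4 lines and lower with DAXX knockout in 3 of 4 pairs, the exception being J1 2i. For the medium its change was log2 −0.76 with an SE of 0.133 (adjusted p of 1.16e-05, edgeR) and for DAXX −0.56 (adjusted p of 0.0169). The DAXX change was no larger than in other copies, as the median L1Md_A element changed by −0.66. Its SE for DAXX was 0.134, beside 0.367 to 0.454 for the next 4 elements by level. By background it changed by −0.11 in J1 and −1.01 in TKO, beside L1Md_A medians of −0.03 and −1.28. Over 16 alternatives the adjusted p for the medium ranged from 2.29e-47 to 0.747 in edgeR, limma and DESeq2, and the call was lost with TMM, median-of-ratios scaling and DESeq2. The call for DAXX was lost with the same 3, and over its alternatives the adjusted p ranged from 4.88e-09 to 0.915.

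The assembled transcripts covered one end of this element. In every library a locus began at 4082091, 4 bp before the element, and it ended between 4083082 and 4085960, a length of 991 to 3869 bp. Its FPKM, by the authors, lay between 161 and 440. It was below the RPKM of the whole 5164 bp element in 6 of 8 libraries, the exceptions being J1 DAXX-knockout 2i, with the locus at 416 and the element at 261, and TKO DAXX-knockout 2i, at 194 and 179. The 2 values come from separate tables in different units. How reads lie along the element was not analysed here. No gene annotation of mm9 was used here, so what else is annotated there was not analysed.

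**Figure D3:**
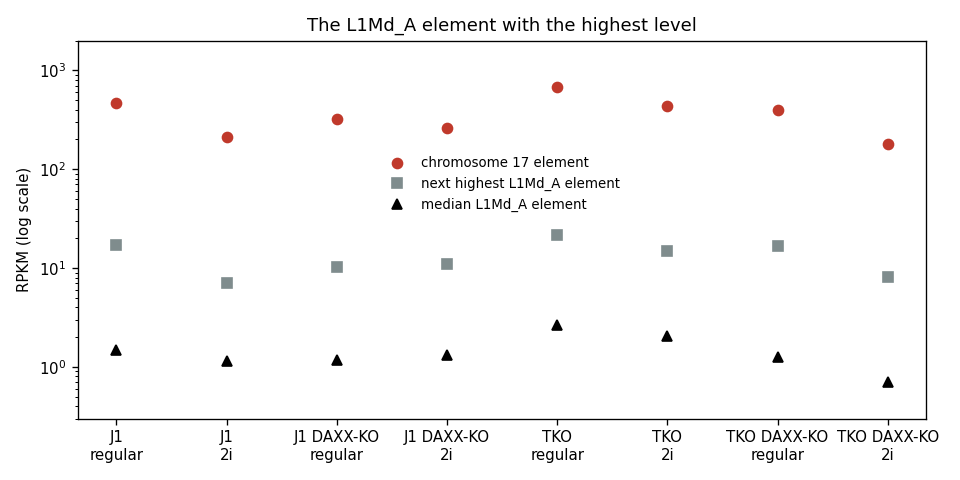
RPKM on a log scale (y axis) of the chromosome 17 element (circles), the next highest L1Md_A element (squares) and the median L1Md_A element (triangles) in the 8 libraries (x axis). The circles run from 179 to 681 RPKM and lie at least 21.8 times above the squares in each library.

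The next 4 elements by mean level were not called in any comparison. One on chromosome 7 from 48421187 to 48430896, 9709 bp long, was at 17.03 and 7.09 RPKM in J1 regular and J1 2i, and at 10.2 and 10.95 with DAXX knocked out. In TKO it was at 21.8 and 15.0 RPKM, and at 16.6 and 6.82 with DAXX knocked out. The others lie on chromosome 3 from 90902858 to 90909066 (mean 10.8 RPKM), chromosome 6 from 66950569 to 66959636 (8.82) and chromosome 2 from 21917584 to 21924173 (8.68). Their changes with the medium were −0.68, −0.93, −0.73 and −0.69 on the log2 scale, in the order named, each outside the 90% of tested L1Md_A elements that lay between −0.52 and −0.12. With DAXX knockout in TKO they changed by −0.75, −0.44, −0.27 and −0.86, all weaker than the −1.01 at the upper end of that 90% range. For DNMT the chromosome 3 copy changed by 0.95, above the upper end of 0.43. The chromosome 6 copy lay inside an assembled locus in all 8 libraries, and the chromosome 2 copy outside loci in all 8.

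Copies differ in length, and length went with level. L1Md_A elements were up to 9892 bp long, with a median of 6006. The median of the mean RPKM was 1.51 in the 1553 elements under 6000 bp, 1.15 in the 1021 from 6000 to below 6500 bp, 2.08 in the 445 from there to below 7000 bp and 2.37 in the 112 longer ones. The level was thus lowest in the middle class, not in the shortest.

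At finer steps both the number of copies and their level rose and fell in a regular way. Lengths piled up at 10 values, 5196, 5379, 5577, 5785, 5992, 6199, 6376, 6574, 6780 and 6989 bp, with gaps of 177 to 209 bp between neighbours. The levels at these lengths form 2 runs of 5. In the first run the median rose from 1.06 RPKM at 5196 bp to 2.06, 2.41, 2.47 and 2.48 at 5992 bp. In the second it began again at 1.07 RPKM at 6199 bp and went on to 1.86, 2.08, 2.26 and 2.17 at 6989 bp. The runs are offset by 995 to 1003 bp, and copies at the same place in each run had similar levels. A rise, a fall and a second rise with length were also seen in L1Md_T. Its median was 2.21 and 2.28 RPKM in the 100 bp bins starting at 5600 and 5800 bp. It was 0.582, 1.28 and 0.506 in those starting at 5900, 6000 and 6100 bp. In those starting at 6400 and 6600 bp the L1Md_T median was 1.76 and 2.11.

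Within each run, from its second length on, the level was lower between the common lengths. In bins of 100 bp, those starting at 5300, 5500, 5700, 5900, 6300, 6500 and 6700 bp had a higher median than both neighbours in 8 of 8 libraries. The bins between them starting at 5400, 5600, 5800, 6400, 6600 and 6800 bp had a lower median than both neighbours in 8 of 8. So did the bin starting at 6100 bp, which holds the common length of 6199 bp itself. Next to the first length of each run there was no such dip, as the bin starting at 5200 bp had a median of 1.18 RPKM and that starting at 6200 bp one of 1.03. From the second place of each run to its last, the 948 elements within 30 bp of a common length had 1.22 to 1.41 times the median level of the 404 others, depending on the library. These lengths and bins were chosen after the data were seen, so the values are a description. Which copies keep intact monomers, and how that goes with level, was not tested because no genome of this build was used here.

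**Figure D4:**
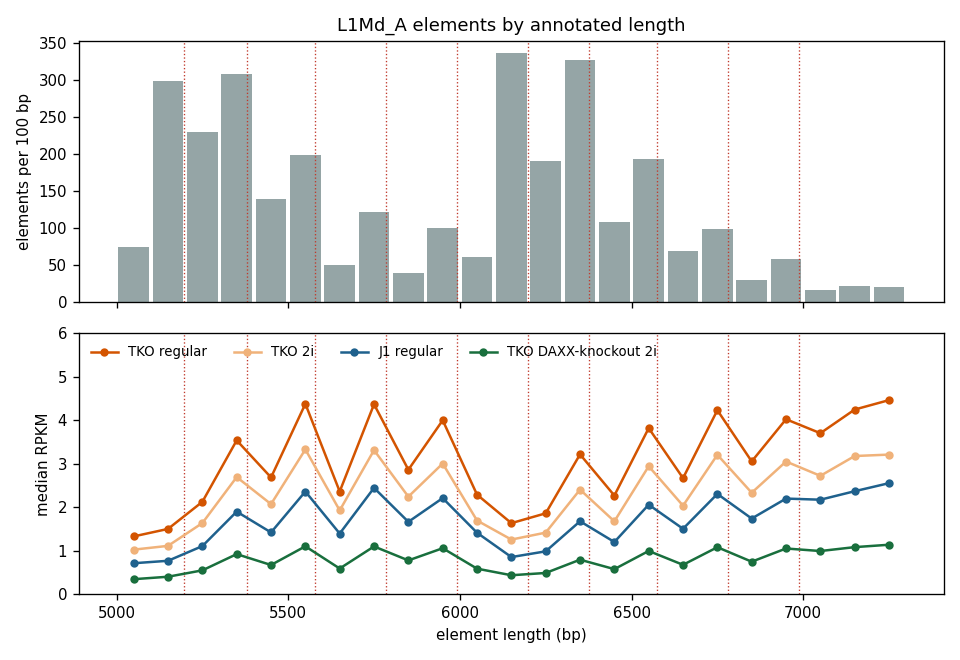
Number of L1Md_A elements per 100 bp of length (upper panel) and their median RPKM in 4 libraries (lower panel), against element length in bp. Dotted lines mark the 10 common lengths from 5196 to 6989 bp, and the median in each library is low at the start of each run of 5 and, from the second line of a run on, between its lines.

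The change with DAXX knockout was much alike at all lengths. In TKO regular the median log2 ratio was −1.07 in elements under 6000 bp, −1.06 and −1.03 in the next classes and −1.01 in those of 7000 bp and over. In J1 regular it was −0.36, −0.32, −0.39 and −0.44 in the same order. Chromosomes were alike too, with medians in TKO regular between −1.08 and −1.03 on all of them. Chromosome X held 344 elements, more than any other chromosome, and chromosome Y held 7.

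Ratios within a library are free of its scaling and gave 9 tests of groups of 4 libraries, in which the exact permutation test cannot go below a p of 0.0286. Adjusted over the 9, a single test at that value has a p of 0.257, so no test could pass 0.05 by itself, and that none did says nothing of stability. The ratio of L1Md_A to L1Md_T levels was 1.34 in J1 regular, 0.985 in J1 2i, and with DAXX knocked out 0.955 and 0.709 in the same media. In TKO it was 1.09 and 1.31 in regular medium and 2i, and 1.15 and 1.03 with DAXX knocked out. The groups overlapped for each factor. For DAXX knockout the log2 ratio was lower by a mean of −0.31, with an exact two-sided permutation p of 0.171 and an adjusted p of 0.450. For DNMT the difference was 0.23 (exact permutation p of 0.314, adjusted 0.566) and for the medium −0.19 (exact permutation p of 0.429, adjusted 0.643). The permutation did not use the matching of libraries. In libraries matched on the other factors the ratio was lower with DAXX knockout in 3 of 4 pairs (log2 −0.49 to 0.082). It was higher in TKO in 3 of 4 pairs and lower in 2i in 3 of 4.

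The ratio of elements of at least 6500 bp to those under 6000 bp varied little, from 1.16 in J1 2i to 1.25 in TKO DAXX-knockout regular. The chromosome 17 element is one of the short ones, and without it the ratio was 1.29 to 1.48. For DNMT the log2 ratio differed by 0.047, with an exact two-sided permutation p of 0.0571 and an adjusted p of 0.386, and for the medium by −0.038 (exact permutation p of 0.200, adjusted 0.450). Without the chromosome 17 element these were 0.052 (exact permutation p of 0.286, adjusted 0.566) and −0.093 (exact permutation p of 0.0857, adjusted 0.257), so the medium then had the larger difference. In libraries matched on the other factors the ratio was higher in TKO than in J1 in 4 of 4 pairs, by 0.0048 to 0.069, and in 3 of 4 without that element. It was lower in 2i than in regular medium in 4 of 4 pairs, by log2 −0.074 to −0.0093, and also in 4 of 4 without the element. With long copies taken from 6000 bp on and the chromosome 17 element kept among the short ones, it was instead higher in 2i in 4 of 4. That element was itself lower in 2i in 4 of 4 lines. The cut at 6000 bp without it was not tested, so this turn cannot be laid to the length cut.

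Most copies lay away from assembled transcripts. Of the 3131 elements 216 lay wholly inside an assembled locus at least 2 times their length in at least 1 library, 2852 overlapped no locus in any library and 63 did neither. Inside elements numbered 125 to 162 by library, 85 were inside in all 8 and 34 in only 1. Whether a locus is assembled itself depends on reads there. The median inside element was at 1.91 RPKM in J1 regular and 3.43 in TKO regular, against 1.40 and 2.54 outside. The 63 remaining elements, the chromosome 17 copy among them, were at 2.61 and 4.47 RPKM.

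The changes were alike inside and outside loci. For DAXX knockout in J1 regular, J1 2i, TKO regular and TKO 2i the medians inside were −0.36, 0.25, −0.995 and −1.49, and outside −0.35, 0.25, −1.06 and −1.55. The ratio of levels inside to outside ran from 1.31 in TKO regular to 1.47 in TKO DAXX-knockout 2i. With DAXX knockout the log2 ratio was higher by 0.068, with an exact two-sided permutation p of 0.0857 and an adjusted p of 0.386. For DNMT and the medium the differences were 0.014 and −0.010, with exact permutation p of 0.743 and 0.886. In libraries matched on the other factors this ratio was higher with DAXX knockout in 3 of 4 pairs (log2 −0.0069 to 0.155). For DNMT and for the medium 2 pairs went each way.

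**Figure D5:**
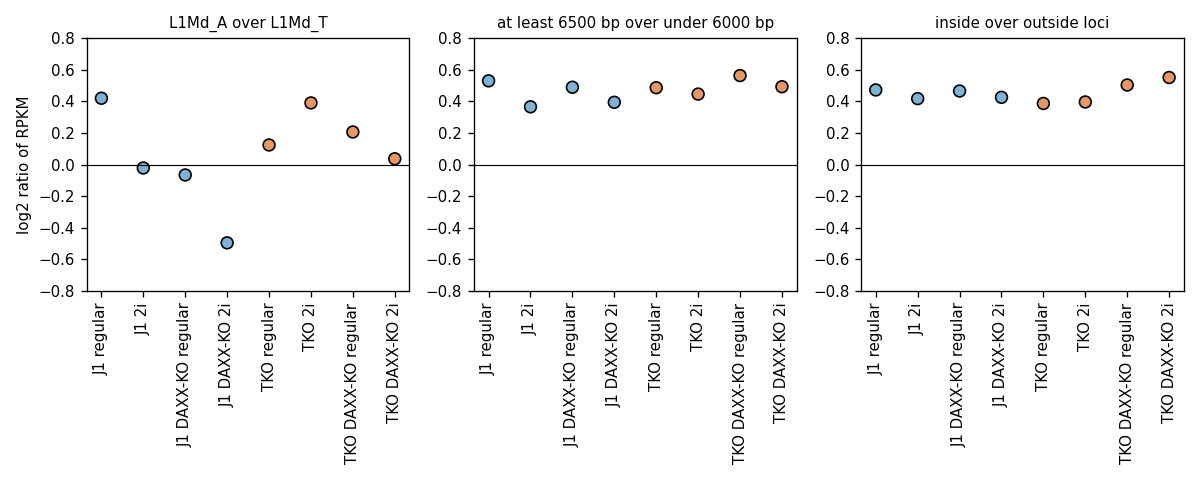
Log2 ratio of levels within each library (y axes) for L1Md_A over L1Md_T, long over short L1Md_A elements, and elements inside over outside assembled loci, with the 8 libraries on the x axes. The ratio of long over short elements is drawn without the chromosome 17 element. Each point is 1 library, J1 lines in blue and TKO lines in orange, and the first ratio spans 0.709 to 1.34 before taking logs while the others vary much less.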

How the data were processed

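RNA-sequencing of 8 libraries was described by the submitters. TopHat, Bowtie2 2.2.4, Cufflinks, Cuffdiff and mm9 are listed, with no role, per the submitters' processing notes. The deposited repeat table gives read counts per element and RPKM, per the file headers, as deposited by the authors. The other files give FPKM of loci assembled in each library by the authors. They were used for position and, after log2, for 1 alternative scaling. Library totals were recovered from counts and RPKM, and recomputed RPKM lay within 0.011 of the deposited values.

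Counts were tested with edgeR 4.0.16 (quasi-likelihood, R 4.3.3) on those totals, over 11322 elements with a mean of at least 0.1 RPKM and over 44 families with a mean of at least 1 RPM. The terms were DAXX, DNMT and medium (4 residual degrees of freedom), or DAXX within background (3). Adjustment was by Benjamini-Hochberg at 0.05 over all elements or families. An SE is the log2 change divided by the root of its F statistic, and pair ratios add 0.5 reads. With 1 library per group, p-values rest on the spread over libraries, interactions included. Of the L1Md_A elements 3065 were tested and 66 were not, the highest of these at 0.0996 RPKM and the lowest tested at 0.102.

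Elements were named where they were among the 5 with the highest mean RPKM. For each comparison the 5 strongest changes up or down that passed the threshold and had 1 sign over all its pairs were also named. For the difference between backgrounds, the ratios of both TKO pairs instead had to lie beyond those of both J1 pairs, in the direction of the difference. The members, the lists and the tests were chosen with earlier results of these data known. On simulated data with known changes in 11322 elements, 40 of 100 2-fold and 100 of 100 4-fold changes were recovered for DAXX in TKO, and 7 and 78 of 100 for the difference between backgrounds. Simulated elements varied independently, unlike these. Alternatives were TMM, median-of-ratios and assembled-locus scaling, DESeq2 1.42.0, limma 3.58.1 on log2(RPKM + 0.1) or + 1, no filter, a mean of at least 1 RPKM, and each library left out. The omission of the chromosome 17 element was added after seeing the data. Reads, strands and sequences of the copies were not used here. Python 3.11.15 read the files.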

Additional observations from a re-analysis of the deposited data

Results flagged for a closer look

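The effect of DAXX knockout differed between TKO and J1, by edgeR's test of the difference itself, for 7 L1Md_A elements. That is 0.228% of the 3065 tested, beside 0.503% of all 11322 elements. The count was 0 under TMM and without J1 regular or J1 2i. The log2 differences, TKO minus J1, were −2.88 for the element on chromosome 7 from 5734328, −2.50 and −2.47 for those on chromosome 10 from 49687112 and 52301538, −2.46 on chromosome X from 146666961 and −2.40 on chromosome 1 from 3027807. For 2 elements on chromosome 14, from 43516713 to 43522931 and from 43582038 to 43588195, they were −2.36 and −2.35, with adjusted p of 0.0390 and 0.0328 in edgeR. These 2 lie close together, and the first was at 0.274 and 0.150 RPKM in J1 regular and 2i, 0.315 and 0.485 with DAXX knocked out, 0.553 and 0.421 in TKO and 0.224 and 0.152 in TKO DAXX-knockout. Each of the 7 had a mean below 1 RPKM, against a median element at 1.14 or more in 7 of 8 libraries.

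In J1 the family sum went opposite ways in the 2 media with DAXX knockout, with a log2 ratio of −0.38 in regular medium and 0.25 in 2i. Each is a single pair of libraries, and the difference was not tested.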

How the results depend on the processing

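The labels carry no replicate numbers to pair libraries by, and pairs matched on line and medium are given in the report as ratios. Counts of L1Md_A elements called turned on scaling, on the filter and on single libraries. For DAXX, 1 became 11 under TMM, 4 under median-of-ratios scaling and 0 with DESeq2 or without the chromosome 17 element, and 0 to 1727 with a library left out. For DAXX in J1, 0 became 2 under TMM and under median-of-ratios scaling, and 0 to 50 with a library left out. For DAXX in TKO, 2187 became 3 under TMM (1 lower, 2 higher) and 2 under median-of-ratios scaling (0 lower), while the median element was still at −0.15 under both, 371 with no filter, 1 at a mean of at least 1 RPKM, and 1 to 2951 with a library left out. Over the other alternatives it was 2192 to 2944. For the difference between backgrounds, 7 became 0 under both repeat scalings, with limma at + 1 and at a mean of at least 1 RPKM, 340 under assembled-locus scaling, 28 with DESeq2, 1 with limma at + 0.1, 14 with no filter, and 0 to 2298 with a library left out. For DNMT, 0 became 7 under both repeat scalings and 1 in both limma fits, and 0 to 2 with a library left out. For the medium, 1 became 2 under TMM, 8 under median-of-ratios scaling and 0 without the chromosome 17 element, and 1 to 23 with a library left out. The family sum passed with DESeq2 for DAXX in TKO (log2 −1.25) and for the difference between backgrounds (−1.20). With a library left out these were −1.60 to −0.94 and −1.57 to −0.82, the first called without either J1 DAXX-knockout library and the second without J1 DAXX-knockout regular. The difference between backgrounds was 0.013 under TMM. The ratios within libraries had no test that could pass by itself. The ratio of long to short copies changed its sign for the medium, to 0.014, with long copies from 6000 bp on. The chromosome 17 element was kept among the short ones there. Apart from fewer or more elements tested and the omission of samples, the cause was not tested. TMM and median-of-ratios scaling set the typical repeat element near 0, moving libraries by log2 −0.92 to 0.98 from their totals, and which scaling is right was not tested. Depth limits single weak copies, such as the chromosome 7 element with 22 to 289 reads, and not the family.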
